A study of Xenopus tropicalis with 12 samples.

Results

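The globin genes hba3, hba4, hbd and hbg2, with genes of heme synthesis beside them, were followed through metamorphosis of the brain of the frog Xenopus tropicalis. Gene models of the deposited tables were taken by their annotated name, and a model that carries several names was counted a single time. The set held 3 models of 33875, of which the 2 globin models are described. The model hba3/hba4 (XLOC_023488) holds both alpha globin names, and hbd/hbg2 (XLOC_038675) holds both beta-type globin names. RNA came from wild-type animals bought from a commercial supplier and reared at 25 °C, with no treatment or altered allele in any group. The dissected piece was the middle part of the brain, which holds the hypothalamus and thalamus with the preoptic area. The 4 groups were Nieuwkoop-Faber (NF) stages: NF50 (premetamorphosis), NF56 (prometamorphosis), NF62 (the climax of metamorphosis) and NF66 (its end), with 3 libraries each. The number of animals behind a library, and whether blood was washed out before dissection, are not stated in the labels.

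Hemoglobin, the oxygen carrier of red blood cells, is built from alpha-type and beta-type globin chains, each of which holds a heme group. Heme is made from glycine and succinyl-CoA by a chain of enzymes, in which ALAS2 is the red cell form of the first enzyme and ALAS1 the form of other cells. In frogs, red cells keep their nucleus, and larval red cells with larval globins are replaced by adult red cells with adult globins around metamorphosis. Neurons and glia make little hemoglobin, so globin RNA in a brain sample that was not cleared of blood can come from red cells in its vessels. No annotation text of the members uses the words larval, tadpole or adult. What the T in the name alpha-T4 globin, given there to hba4, stands for is not stated.

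The 2 globin models each cover more than 1 gene, so reads of the genes in a model cannot be separated here. The alpha model is 4613 bases long and also carries the gene ID that RefSeq gives to hba2, and its annotation text calls hba4 an alpha-T4 globin. The beta-type model is 2522 bases long, although hbe1 and 4 genes without a gene symbol lie between hbg2 and hbd in the RefSeq gene order. Of 19 globin names searched, 14 matched no named model (among them hba1, hbg1 and hbe1) and were not analysed here, so the members show only part of a change of globins.

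Libraries held 12046529 (NF56 replicate 3) to 31029733 (NF66 replicate 3) expected counts, and all other libraries lay between 19732166 and 25551912. NF50 replicate 4 stood apart: models under 400 bases took 39.3% of its summed TPM (a level per transcript length on a scale common to all libraries), against 14.4% to 20.8% in the other libraries, so its TPM of longer genes is low. Levels are therefore given in CPM (the count per unit of library size, after TMM scaling of the libraries), and TPM serves only for ratios within a library. Markers of the labelled tissue were found at very different levels. A transcription factor of hypothalamic neurons, otp, averaged 186 CPM at NF50, 155 at NF56, 195 at NF62 and 171 at NF66. A transcription factor of the thalamus, tcf7l2, averaged 552 to 727 CPM per stage. The lowest of the 8 tested genes of the hypothalamus and thalamus were nkx2-1 (9.82 to 11.96 CPM per stage) and sim1 (0.383 to 0.529 CPM). All libraries came from the same labelled tissue, so these levels do not test the dissection.

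The alpha globin model fell through metamorphosis. It was counted at 939.95, 824 and 1141 CPM in the 3 NF50 libraries, at 611, 619 and 497 CPM at NF56, at 239.94, 277 and 383 CPM at NF62, and at 234, 199.86 and 393 CPM at NF66. Every NF50 library lay above every NF56 library, and every NF56 library above every NF62 library. The NF62 and NF66 libraries overlapped, and NF66 replicate 3 was higher than any NF62 library. The stage means were 968 ± 160.5 CPM at NF50, 576 ± 68.4 at NF56, 299.9 ± 74.0 at NF62 and 276 ± 103 at NF66 (SD, n = 3 each). By average level it was number 262 of the 19584 models tested.

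The beta-type globin model fell further. It stood at 759.8, 653 and 940.3 CPM at NF50, at 525, 544 and 439 CPM at NF56, at 123, 142 and 158 CPM at NF62, and at 99.7, 82.7 and 118 CPM at NF66. None of the 4 stages overlapped with another: the lowest NF62 library had 123 CPM and the highest NF66 library 118 CPM. For both globin models, the share of all models without overlap is given below with each comparison. Means were 784 ± 145 CPM at NF50, 502.5 ± 56.04 at NF56, 141 ± 17.1 at NF62 and 100.3 ± 17.9 at NF66 (SD, n = 3 each). It was number 367 of 19584 by average level.

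**Figure D1:**
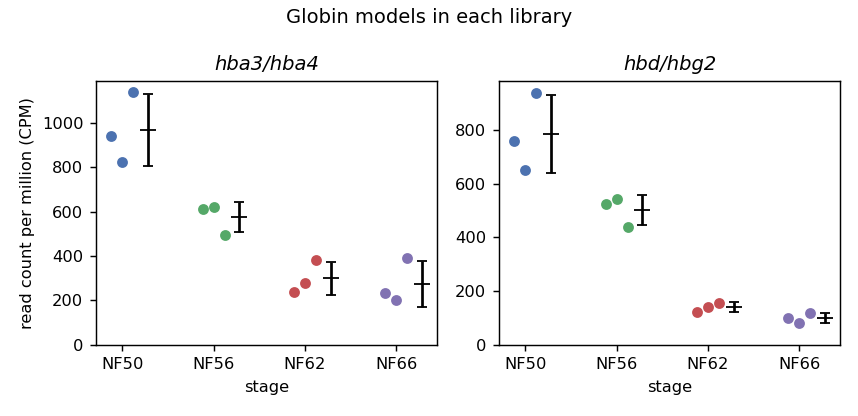
Level of the alpha and beta-type globin models (CPM, from 0) in each library at NF50, NF56, NF62 and NF66; coloured points are libraries, and the black bar beside them is the mean ± SD of 3. The means of both globin models step down at NF56 and again at NF62. At NF56 against NF50 the alpha model did not pass the test (adjusted p = 0.0671 by edgeR). The call of the beta-type model there depended on single libraries.

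Taken as a share of the library, the summed globin models held 0.164%, 0.149% and 0.194% of all expected counts at NF50, 0.116%, 0.117% and 0.0978% at NF56, 0.0371%, 0.0403% and 0.0559% at NF62, and 0.0338%, 0.0273% and 0.0532% at NF66. The highest was NF50 replicate 4, with a 95% Clopper-Pearson interval of 0.192% to 0.196%. The lowest was NF66 replicate 2, with an interval of 0.0266% to 0.0281%. These intervals cover counting error only and are far narrower than the spread between libraries of a stage. In bulk tissue, fewer red cells in the sample and less globin RNA per red cell cannot be told apart.

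Over the whole of metamorphosis, NF66 against NF50, both globin models were lower. The background is high: 18.8% of all models tested were called lower in this comparison and 17.9% higher. The beta-type globin model was 7.81-fold lower at NF66 than at NF50 (log2 fold change -2.97 ± 0.17 SE, adjusted p = 5.53e-07; edgeR's quasi-likelihood test with Benjamini-Hochberg adjustment over all 19584 models). The alpha globin model was 3.51-fold lower at NF66 (-1.81 ± 0.25, adjusted p = 0.000216 by edgeR). Ranked from the most negative fold change, the beta-type model was number 151 of 19584 and the alpha model number 454. No NF66 library overlapped an NF50 library in either model, which was so for 46.5% of all models. Without NF50 replicate 4 the log2 fold changes were -2.83 for the beta-type model and -1.68 for the alpha model, and both were still called.

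By the climax most of this change was already there. At NF62 against NF50 both models were again lower, where 17.9% of all models were called lower and 17.1% higher, with log2 fold changes of -2.48 ± 0.17 for the beta-type model (adjusted p = 1.77e-06 by edgeR) and -1.69 ± 0.25 for the alpha model (adjusted p = 0.000364 by edgeR). The libraries of these stages overlapped for neither model, against 46.9% of all models without overlap, and both calls held without NF50 replicate 4. At NF66 against NF56 the beta-type model was 5.01-fold lower (adjusted p = 8.9e-06 by edgeR) and the alpha model 2.09-fold lower (adjusted p = 0.011 by edgeR), where 10.1% of models were called lower and 11% higher. The libraries of these stages did not overlap for either globin model, against 34.4% of all models without overlap. These comparisons share stages with each other, so their fold changes are not independent.

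Between successive stages, the first step was the least firm. At NF56 against NF50, 1 of the 2 models was called lower (7.98% of all models were): the beta-type model, by -0.64 ± 0.16 on the log2 scale (adjusted p = 0.0211 by edgeR). The alpha model differed by as much, -0.75 ± 0.25, but did not pass (adjusted p = 0.0671 by edgeR). Neither model overlapped between these stages, as was so for 35.5% of all models. Leaving out NF50 replicate 4 ended the call: the beta-type model then differed by -0.50 (adjusted p = 0.0886 by edgeR). With each library left out in turn, between 0 and 2 of the 2 models were called. The call of the beta-type model also ended when NF50 replicate 1, or replicate 1 or 3 of NF56, was left out. The alpha model was called without NF66 replicate 2 or 3, which changes only the shared estimate of spread.

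The step into the climax was the largest for the beta-type model. At NF62 against NF56 it was 3.56-fold lower (log2 -1.83 ± 0.16, adjusted p = 5.8e-05 by edgeR), and the alpha model was 1.92-fold lower (-0.94 ± 0.25, adjusted p = 0.0222 by edgeR), where 8.97% of all models were called lower. Neither globin model overlapped between the stages, as was so for 35.9% of all models. The call of the beta-type model held without any single library, and that of the alpha model ended without NF56 replicate 1 or 2 or NF62 replicate 1 or 2 (adjusted p up to 0.0901 by edgeR).

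After the climax neither model passed the test. At NF66 against NF62, edgeR called 0 of the 2 models at the adjusted threshold, where it called 3.16% of all models. The alpha model differed by -0.12 (95% interval -0.66 to 0.42). The beta-type model differed by -0.49 (-0.84 to -0.14), with an adjusted p of 0.138 by edgeR and an unadjusted p of 0.011 from the same fit; it was the 1 model of the 2 below 0.05 unadjusted, and DESeq2 called it with an adjusted p of 0.0455. Its NF66 libraries all lay below its NF62 libraries, as was so in either direction for 19.5% of all models. Asked whether a level differed among the 4 stages at all, edgeR called both models, and 39.6% of models overall.

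**Figure D2:**
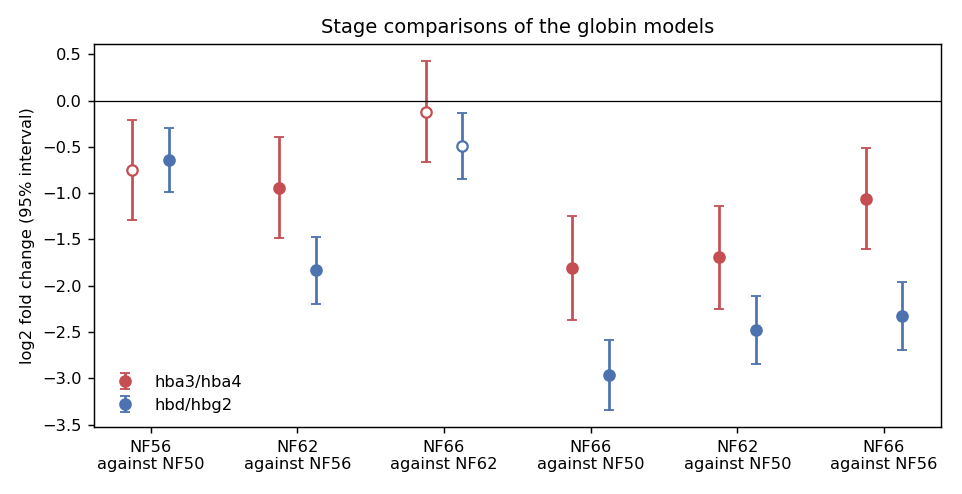
Log2 fold change of each model, later stage over earlier stage, with its 95% interval in 6 stage comparisons; filled circles have an adjusted p under 0.05 (edgeR) and open circles do not. The beta-type model lies at or below -1.83 in every comparison of NF62 or NF66 with NF50 or NF56, and both circles are open at NF66 against NF62.

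The 2 globin models did not fall by the same amount, so their balance changed within each library. The TPM of hba3/hba4 over that of hbd/hbg2 was 0.672, 0.685 and 0.659 at NF50, 0.632, 0.618 and 0.615 at NF56, 1.06, 1.06 and 1.32 at NF62, and 1.28, 1.31 and 1.804 at NF66. All 6 libraries before the climax lay below 0.70 and all 6 from the climax on above 1, and the NF62 and NF66 libraries overlapped. The mean log2 ratio was -0.57 ± 0.03 at NF50, -0.69 ± 0.02 at NF56, 0.19 ± 0.18 at NF62 and 0.53 ± 0.28 at NF66 (SD, n = 3 each). The ratio differed among stages (exact permutation test over the 369600 assignments of libraries to stages, 1-sided by construction, p = 0.000779, adjusted p = 0.00156 over 2 ratios), and was 2.15-fold higher at NF66 than at NF50. Its level depends on the lengths of the merged models, whereas its change between libraries does not, and neither depends on how a library was scaled. Without NF50 replicate 4 the NF66 minus NF50 difference was 1.09 on the log2 scale, against 1.11 with it.

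Relative to the summed RNA of both globin models, the red cell heme enzyme alas2 stood higher from the climax on. It fell itself, from 23.8 CPM on average at NF50 to 10.4 CPM at NF66, but less than the globins. Any gene that fell less than the globins rises in such a ratio. The form of other cells, alas1, averaged 19.7 CPM at NF50 and 22.0 CPM at NF66, so the rise is not particular to alas2. The TPM of alas2 over the summed TPM of both globin models was 0.00802, 0.00753 and 0.00713 at NF50, 0.00838, 0.00865 and 0.0114 at NF56, 0.0144, 0.0156 and 0.0146 at NF62, and 0.0221, 0.0154 and 0.0149 at NF66. The 6 libraries from the climax on all lay above the 6 earlier ones, and this ratio, chosen after its values were seen, was not tested. The sum includes the beta-type model, which fell further than the alpha model. Against the alpha model alone the separation was not complete. In NF56 replicate 3, alas2 had 10.43 TPM and hba3/hba4 348.16 TPM. In NF66 replicate 3 they had 6.46 and 279.23 TPM, a lower ratio. The ratio was also lower than in NF56 replicate 3 in NF62 replicates 1 and 3 and in NF66 replicate 2. Each other library of NF50 and NF56 lay below all 6 later ones.

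**Figure D3:**
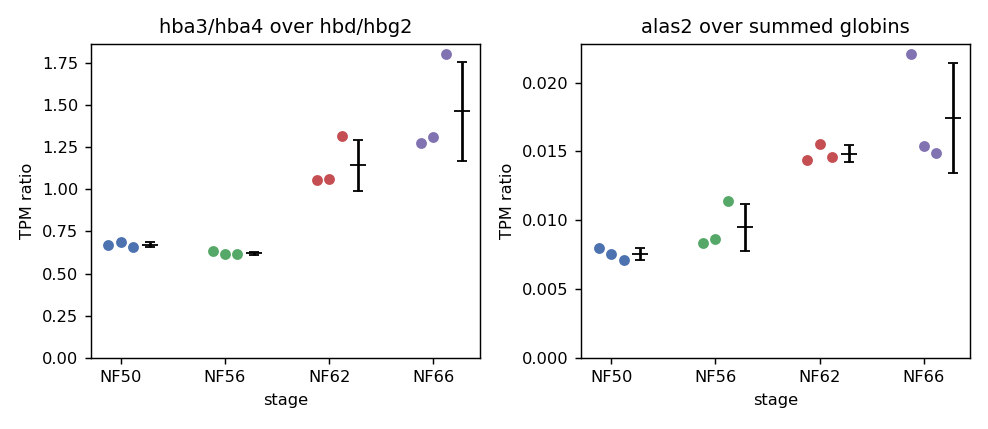
Ratio of TPM within each library, alpha over beta-type globin model (left) and alas2 over both globin models (right), at the 4 stages; coloured points are libraries, black bars the mean ± SD of 3, and both axes start at 0. In both panels the NF62 and NF66 libraries lie above all NF50 and NF56 libraries. With alas2 set against the alpha model alone, this separation was not complete. Any gene that fell less than the globins rises in a ratio like that on the right, so its rise is not particular to alas2.

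The enzymes of heme synthesis moved less than the globins. Values are given for 7 measured genes of the pathway, all of them tested, while fech, which inserts the iron, matched no named model and was not analysed here. At NF66 against NF50, 1 of the 7 was lower and none higher, where 18.8% of all models were called lower, so the count is near the background; the median log2 fold change was -0.24, against 0.02 over all models. The 1 gene called was alas2, the red cell form of the first enzyme. At NF62 against NF50, 3 of the 7 were lower and none higher, where 17.9% of all models were called lower (median -0.40, against 0.01 over all models): alas2, uros, which closes the ring of the heme precursor, and ppox, the last enzyme but fech. The test for any difference among stages called 4 of the 7, which were these 3 and cpox, beside 39.6% of all models.

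The enzyme alas2 was the heme gene nearest to the globins. It was counted at 24.5, 19.9 and 26.8 CPM at NF50, at 17.3, 18.3 and 19.5 CPM at NF56, at 8.79, 11.0 and 12.9 CPM at NF62, and at 12.1, 7.07 and 11.9 CPM at NF66. The 6 libraries from the climax on lay below the 6 earlier ones, and NF62 and NF66 overlapped. The share of all models with this separation of 6 libraries from 6 was not computed. Between single pairs of stages, a lack of overlap was seen for 46.5% of all models at NF66 against NF50 and 46.9% at NF62 against NF50. The share was 34.4% at NF66 against NF56 and 35.9% at NF62 against NF56. The level of alas2 was lower by -1.19 ± 0.20 on the log2 scale at NF66 against NF50 (adjusted p = 0.000862 by edgeR) and by -0.75 ± 0.20 at NF62 against NF56 (adjusted p = 0.0252 by edgeR). Over the 12 libraries its log2 level had a Pearson correlation of 0.96 with that of the summed globins, and of 0.73 after the stage means were taken out. The libraries share depth and scaling, and the correlations are given as descriptions.

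Its counterpart of other cells, alas1, averaged 22.0 ± 1.5 CPM at NF66 and 19.7 ± 1.2 CPM at NF50 and passed no pairwise test. The enzyme uros averaged 26.2 ± 0.6 CPM at NF50, 21.8 ± 1.0 at NF56, 17.7 ± 2.6 at NF62 and 23.4 ± 2.7 at NF66. It was lower at NF62 than at NF50 (log2 -0.57 ± 0.11, adjusted p = 0.0021 by edgeR), and its difference at NF66 against NF62, 0.40 ± 0.11, missed the threshold (adjusted p = 0.0798 by edgeR). The oxidase ppox was lower at NF62 against NF50 as well (-0.58 ± 0.14, adjusted p = 0.00601 by edgeR). The enzyme cpox, which acts just before ppox, averaged 13.2 ± 0.9 CPM at NF50, 15.7 ± 0.1 at NF56, 12.4 ± 0.9 at NF62 and 11.2 ± 0.8 at NF66, and was lower at NF62 against NF56 (-0.34 ± 0.09, adjusted p = 0.0231 by edgeR). The second enzyme, alad, had log2 differences of -0.26 ± 0.15 at NF66 against NF50 and -0.40 ± 0.15 at NF62 against NF50, neither past the threshold, and urod averaged 15.2 to 18.3 CPM per stage and passed no pairwise test.

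**Figure D4:**
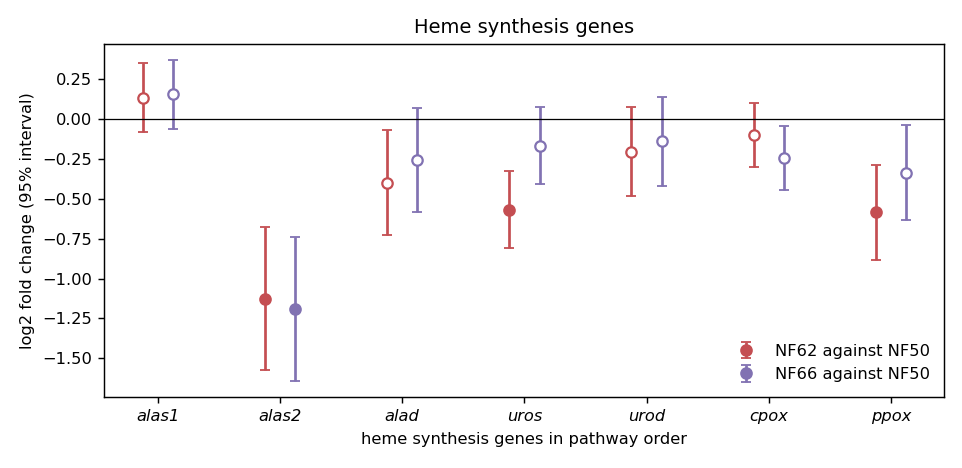
Log2 fold change with its 95% interval for 7 heme synthesis genes in pathway order, NF62 against NF50 and NF66 against NF50; filled circles have an adjusted p under 0.05 (edgeR), open ones do not. The gene alas2 is filled in both comparisons, uros and ppox at NF62 alone.

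The remaining measured hemoglobin gene, hbz, was rare and followed another course. This zeta-type alpha globin gene lies near hba3 and hba4 in the RefSeq gene order and had 1.74, 1.32 and 1.66 CPM at NF50, 0.245, 0.146 and 0.318 at NF56, 0.277, 0.122 and 0.770 at NF62, and 1.15, 0.419 and 0.992 at NF66. These values rest on 3 to 35 expected counts per library. It was lower at NF56 than at NF50 (log2 -2.75 ± 0.60, adjusted p = 0.0114 by edgeR) and higher at NF66 than at NF56 (1.90 ± 0.61, adjusted p = 0.0495 by edgeR). At NF66 against NF50 its difference was -0.86 ± 0.50 (adjusted p = 0.211 by edgeR). Of the globins outside hemoglobin, xgb (globin X) was lower at NF66 than at NF50 (-0.97 ± 0.12, adjusted p = 9.02e-05 by edgeR), while cygb (cytoglobin, 0.28 ± 0.06, adjusted p = 0.00279 by edgeR) and ngb (neuroglobin of neurons, 0.22 ± 0.07, adjusted p = 0.03 by edgeR) were higher.

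Other genes of red cells were called about as often as all models at the end of metamorphosis. Of 27 names of red cell membrane proteins, enzymes and transcription factors, 19 matched a model and 16 were tested. At NF66 against NF50, 4 were lower (slc4a1, epb41, gypc and lmo2) and 3 higher (tmod1, dmtn and bpgm), beside 18.8% of all models called lower and 17.9% higher, with a median log2 fold change of -0.06, against 0.02 over all models. At NF62 against NF50, 7 were lower and 2 higher, beside 17.9% and 17.1% of all models, with a median of -0.36, against 0.01 over all models. The summed level of the list was 572 to 596 CPM at NF66 and 558 to 573 CPM at NF50, and most of it came from genes that neural cells also express, such as epb41, ank1 and dmtn. The red cell membrane genes epb42 and rhag were near 0, with at most 1 count in any library for epb42 and at most 3 for rhag.

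Of single genes on this list, slc4a1, the anion exchanger of the red cell membrane, had 1.85, 1.78 and 2.70 CPM at NF66, against 3.28, 3.86 and 3.22 CPM at NF50 (log2 -0.70 ± 0.20, adjusted p = 0.0169 by edgeR). The groups did not overlap, as was so for 46.5% of all models. Glycophorin C, gypc, was also lower (-1.05 ± 0.21, adjusted p = 0.0026 by edgeR). The transcription factor of red cell precursors, gata1, took a different course, at 1.69, 1.21 and 1.86 CPM at NF50, 0.694, 0.631 and 0.715 at NF56, 0.792, 0.774 and 0.641 at NF62, and 1.43, 1.47 and 1.27 at NF66. It was lower at NF56 than at NF50 (-1.21 ± 0.23, adjusted p = 0.0061 by edgeR) and higher at NF66 than at NF56 (1.03 ± 0.23, adjusted p = 0.00913 by edgeR), and at NF66 against NF50 its difference was -0.19 ± 0.21 (adjusted p = 0.541 by edgeR). Its counts were low, 8.85 to 41.3 per library.

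**Figure D5:**
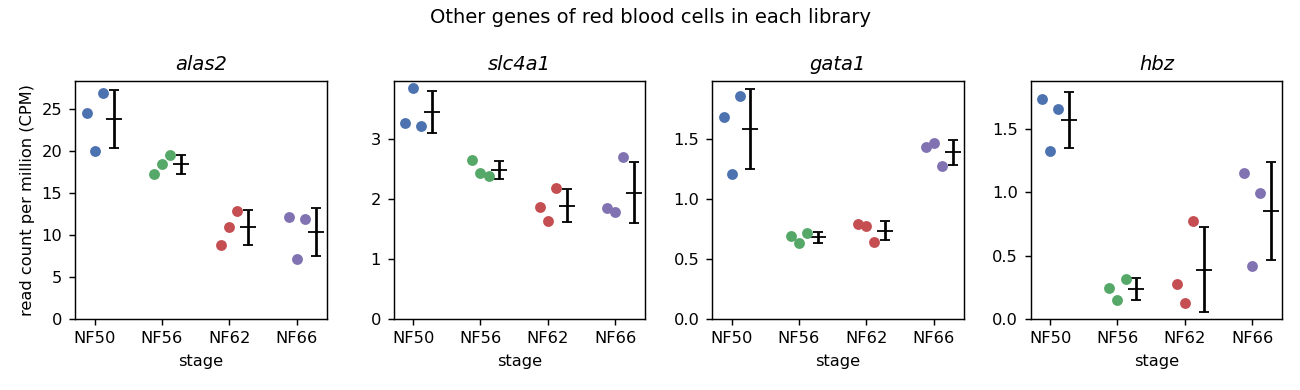
Level (CPM, each axis from 0) of alas2, slc4a1, gata1 and hbz in each library at the 4 stages; coloured points are libraries and black bars the mean ± SD of 3. The genes alas2 and slc4a1 are highest at NF50, while gata1 has all 3 NF66 libraries above all NF56 and NF62 libraries, and hbz overlaps between NF62 and NF66. Of all models, 34.4% did not overlap between NF66 and NF56, and 19.5% between NF66 and NF62. The share without overlap in both of these was not computed.

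Vessel markers were measured beside the globins, since vessels hold the blood of a dissected tissue. Of 13 tested models of endothelial and pericyte genes, 3 were lower at NF66 than at NF50 and 2 higher, beside 18.8% and 17.9% of all models, with a median log2 fold change of -0.43. The endothelial cadherin cdh5 was lower by -1.09 ± 0.15 (adjusted p = 0.000228 by edgeR). The 2 that were higher were the most abundant of the 3 models named pecam1, an endothelial adhesion molecule, by 0.76 ± 0.11 (adjusted p = 0.000275 by edgeR), and the pericyte gene rgs5, by 0.68 ± 0.06 (adjusted p = 9.91e-06 by edgeR). At NF56 against NF50 the most abundant pecam1 model was higher too, at 59.1 CPM on average at NF56 and 40.6 CPM at NF50 (0.54 ± 0.11, adjusted p = 0.00838 by edgeR), whereas a second model, at 3.55 CPM at NF56 and 9.95 CPM at NF50, was lower by -1.47 ± 0.35 (adjusted p = 0.019 by edgeR). The summed level of the list was 205 to 226 CPM at NF66 and 179 to 190 CPM at NF50, with every NF66 library above every NF50 library. This sum is weighted to abundant models and rose with the 2 models called higher, whereas the median of the list was negative. The most abundant pecam1 model averaged 40.6 CPM at NF50 and 68.7 CPM at NF66, and rgs5 41.1 and 65.7 CPM. The similarly abundant cldn5 went the other way, from 42.0 to 32.2 CPM. Thrombocyte genes summed to 2.15 to 2.48 CPM at NF66 and 2.88 to 3.66 CPM at NF50; of 3 tested, none was called by edgeR at NF66 against NF50, nor had any an unadjusted p under 0.05 (lowest 0.0541); vwf differed by -0.51 ± 0.24 and gp1bb by -0.46 ± 0.30. At NF62 against NF50, 2 of these 3 were lower, where 17.9% of all models were called lower (median -1.13, against 0.01 over all models). The von Willebrand factor, vwf, was lower by -1.16 ± 0.25 (adjusted p = 0.00396 by edgeR). The other, gp1ba, a platelet glycoprotein in mammals, was lower by -1.13 ± 0.36 (adjusted p = 0.0286 by edgeR). Levels of gp1ba were low, on average 0.23 CPM at NF62 and 0.52 CPM at NF50. At NF56 against NF50 vwf alone was called, lower by -0.95 ± 0.25 (adjusted p = 0.029 by edgeR), where 7.98% of all models were called lower. Leukocyte and microglia genes summed to 64.2 to 84.3 CPM at NF66 and 52.2 to 56.7 CPM at NF50, with 2 higher (cd68 and cd74), 1 lower (mpo) and a median of -0.03 over 10 tested. Their sum was highest at NF56, at 97.7 to 105.7 CPM. It is weighted to cd74, which averaged 17.0 CPM at NF50, 49.3 at NF56 and 33.5 at NF66. The antigen presentation gene cd74 was higher already at NF56 against NF50 (1.53 ± 0.30, adjusted p = 0.00673 by edgeR), and coro1a was lower at NF62 against NF50 (-0.94 ± 0.32, adjusted p = 0.0392 by edgeR). The part of blood content in the fall of the globins was not tested.

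Genes of other parts of the tissue were also called over these stages. The background at NF66 against NF50 was 18.8% of all models called lower and 17.9% higher. At NF66 against NF50, 5 of 8 tested choroid plexus genes were lower (median -1.59, msx1 by -2.49 ± 0.33 with adjusted p = 0.000139 and 1 of 2 models named kcnj13 by -1.88 ± 0.30 with adjusted p = 0.000493 by edgeR), and ttr was at or near 0 in all libraries. Of 5 pituitary genes, 4 were lower (median -1.60, gh1 by -3.24 ± 0.30 with adjusted p = 1.22e-05 and cga by -1.73 ± 0.34 with adjusted p = 0.00214 by edgeR), with a summed level of 26.5 to 69.9 CPM at NF66 and 108 to 167 CPM at NF50. Of 7 neuron genes, 3 were higher and 2 lower (median 0.10). Of 8 genes of the hypothalamus and thalamus, 2 were higher and none lower (median 0.08), so their count is near the background. At NF66 against NF56 all 7 neuron genes were called, 4 lower and 3 higher, where 10.1% of all models were called lower and 11% higher. Among the lower ones were tubb3 (-0.99 ± 0.10, adjusted p = 9.44e-05 by edgeR) and elavl3 (-0.69 ± 0.06, adjusted p = 3.85e-05 by edgeR). The synaptic genes snap25 (0.51 ± 0.06, adjusted p = 0.00011 by edgeR) and syt1 (0.45 ± 0.05, adjusted p = 0.00019 by edgeR) and the neuronal splicing factor rbfox3 (0.18 ± 0.05, adjusted p = 0.0397 by edgeR) were higher. The hormone gene avp was higher at NF62 than at NF50 (2.72 ± 0.24, adjusted p = 1.12e-05 by edgeR) and oxt at NF66 than at NF50 (1.39 ± 0.22, adjusted p = 0.000445 by edgeR). The part of these changes in other genes in the results for the members was not tested.

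Genes of heme and iron handling were called in both directions, as were 18.8% (lower) and 17.9% (higher) of all models at NF66 against NF50. The heme-degrading enzyme hmox1 (log2 -0.65 ± 0.21, adjusted p = 0.0304 by edgeR) and the biliverdin reductase blvra (-0.66 ± 0.15, adjusted p = 0.00422 by edgeR) were lower at NF66 than at NF50. The second heme oxygenase, hmox2, was higher (0.62 ± 0.11, adjusted p = 0.00141 by edgeR), and blvrb, the remaining gene of the 4, was not called (median -0.30). Of 9 tested models of iron uptake and storage, 4 were lower and 1 higher, with a median of -0.35, against 0.02 over all models. The transferrin receptor tfrc was lower by -0.55 ± 0.05 (adjusted p = 1.46e-05 by edgeR), and the iron exporter slc40a1 by -0.35 ± 0.10 (adjusted p = 0.0206 by edgeR). The mitochondrial ferritin model ftmt was lower at NF62 than at NF50 (-0.61 ± 0.10, adjusted p = 0.00077 by edgeR). Of 10 genes on a list of heme and iron transport, not all of them transporters, 2 were lower and 1 higher, with a median of -0.01. The lower ones were flvcr2 (by -1.07 ± 0.26, adjusted p = 0.00701 by edgeR) and clpx, and the higher one was slc48a1. The heme exporter flvcr1 was highest at NF62, with averages of 54.5 CPM at NF50, 61.35 at NF56, 88.4 at NF62 and 52.8 at NF66. It was lower at NF66 than at NF62 (-0.74 ± 0.10, adjusted p = 0.00494 by edgeR). The mitochondrial iron importer of red cell precursors, slc25a37, differed by 0.07 ± 0.19 at NF66 against NF50 (adjusted p = 0.815 by edgeR).

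As a description of likeness, 10571 named models (mean log2 CPM 1 or more) were ranked by the correlation of their log2 CPM with that of the summed globins over the 12 libraries. The 5 highest were ankrd40 (Pearson r = 0.99), ttk (0.987), hes5.1 (0.98), fam54a/mtfr2 (0.979) and pla2g2e (0.976), none of them a known red cell marker on the lists used here. With the stage means taken out, the 5 highest were wfs1 (0.932), sdha (0.926), slc19a1 (0.895), ankrd40 (0.889) and fam54a/mtfr2 (0.888), so 2 genes stood on both lists.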

How the data were processed

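The authors deposited RSEM expected counts and TPM for 33875 gene models, per the file headers, as 1 table per library and a combined matrix with the same expected counts. TPM is treated as a signal per length: the deposited TPM columns repeat lines for models with several genes, so repeats were dropped. Tools named in the submitters' processing notes are RSEM, Bowtie, cutadapt, DESeq2 and CASAVA 1.8.2. No source used here names the genome build, and coordinates are left out. RefSeq's gene table (UCB_Xtro_10.0) served for names of 54 annotation lines and for gene order only.

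Of the non-zero expected counts 74.3% were not whole. They were rounded to whole numbers and passed to filterByExpr with the stages as groups (count of 10 or more, total of 15 or more); 19584 models, holding 99.93% of the counts, were tested. The quasi-likelihood fit used edgeR 4.0.16 in R 4.3.3 with TMM factors, all 12 libraries and 1 mean for each stage, and p-values were adjusted over all models by Benjamini-Hochberg (threshold 0.05). Biological variation amounted to 18.3% (coefficient of variation). Log2 ratios of TPM within a library were tested by exact permutation, where the smallest p possible was 6.49e-05. The p-values of the ratios were adjusted by Benjamini-Hochberg with SciPy 1.17.1.

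The labels call the samples biological replicates but do not tie them to animals, so p-values measure the spread between these libraries. The labels give no sequencing batch. The members, the 14 further gene lists (161 symbols, of which 114 matched) and the tests were chosen with earlier results of these data known. A result that involves 1 gene of the set is not reported here. The other members and the measured globin and heme synthesis genes are named whatever their values, and of other lists the 2 genes with the largest called change among those whose mean log2 CPM was 1 or more, or the 2 most abundant where none was called; epb41, hmox1, tfrc, ngb, gata1 and the other genes named beyond that were chosen after their values were seen. Alternatives were DESeq2 1.42.0 and RLE factors, other filters, library sizes without globins, limma 3.58.1 on log2(TPM + 1) and log2(TPM + 0.1), the replicate block, pairs of stages fitted alone, and each library left out.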

Additional observations from a re-analysis of the deposited data

How the results depend on the processing

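Counts of called globin models at NF66 against NF50, NF62 against NF50, NF66 against NF56 and for any stage were 2 under all alternatives run. At NF56 against NF50 the count of 1 became 0 with limma on log2(TPM + 1), on log2(TPM + 0.1) and on TPM rescaled over models of at least 400 bases (the last chosen after seeing the data), became 2 with DESeq2 and with the libraries of these stages alone, and ranged from 0 to 2 with 1 library left out. On log2(TPM + 1) the median of all models moves to 0.32, so the fold changes there are relative to another centre. At NF62 against NF56 the count of 2 became 1 with limma on log2(TPM + 1) and on log2(TPM + 0.1), and ranged from 1 to 2 with 1 library left out. At NF66 against NF62 the count of 0 became 1 with DESeq2 and was 0 in every fit with a library left out. The globin ratio (NF66 minus NF50, log2) ranged from 0.945 to 1.196 with 1 library left out, with the test passed each time. A direction turned only for the alpha globin model at NF66 against NF62, where no call was made: it ranged from -0.466 to 0.094 with 1 library left out, with 0.094 without NF62 replicate 3 and 0.066 without NF66 replicate 2.

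Replicate numbers were not taken to pair the libraries, since not every same-numbered pair deviated together. The correlation of deviations had a median of 0.471 (-0.181 to 0.638) over 15 same-numbered pairs and of -0.18 over 39 others. All pairs numbered 1 lay under 0.1. Those numbered 2 lay at 0.523 to 0.638 and those numbered 3 at 0.447 to 0.591. Of 11 libraries, 7 correlated best with their own number, a hint from the data and not from the design. With the replicate block, the counts of called globin models were 1 at NF56 against NF50, 2 at NF62 against NF56, 0 at NF66 against NF62 and 2 in each of the other comparisons, and no call changed. NF50 replicate 4 was the only library with its number, so its block term fitted it alone and it added nothing to the stage differences. The beta-type model at NF56 against NF50 then differed by -0.47 (adjusted p = 0.0472 by edgeR). Over all models the block moved the calls at NF56 against NF50 to 5438, against 2837 without it, and those at NF66 against NF62 to 2010, against 618. Low depth limits hbz and gata1, and 3 of the 19 matched red cell genes were too low to test.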
